A study of Rattus norvegicus with 8 samples.

Results

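The livers of rats that had drunk hydrogen water were compared with those of control rats for 34 genes of the urea cycle and of amino acid breakdown. The genes were taken by name from the pathways, with earlier results of these data known. All 34 had a probe set on the array, out of 14218 named genes, and 33 passed the filter on low signals and were tested among 15521 probe sets. Asns was the gene below the filter.

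Hydrogen water animals drank water with 0.7 mM dissolved molecular hydrogen at pH 7.4 for 4 weeks, and control animals drank sterilized distilled water over the same time. All were Sprague-Dawley males, of an outbred strain, 8 weeks old at sampling and fed a commercial diet freely. The study kept 8 animals per group, and 4 arrays per group were analysed. No label ties an array to an animal or mentions pooling, so p-values here reflect only how far these arrays differ, which may be technical.

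Amino acids that are not used for protein are broken down mainly in the liver. Transaminases pass their nitrogen to glutamate and aspartate, glutamate dehydrogenase and glutaminase release ammonia, and the urea cycle turns ammonia and aspartate nitrogen into urea for excretion. The carbon skeletons feed glucose and ketone production, and several of the enzymes, among them tyrosine aminotransferase, tryptophan 2,3-dioxygenase and serine dehydratase, are textbook targets of glucocorticoids, glucagon and feeding.

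Arrays had median deposited signals of 17.2 to 26.8. The 2% trimmed mean signal was 92.0 ± 10.4 on the hydrogen water arrays and 116 ± 18.8 on the control arrays (SD, n = 4 each; p = 0.114 in an exact permutation test, two-sided, that cannot go below 0.0286). The Gapdh ratio, the log2 signal at the 3′ end of Gapdh minus that at the 5′ end and a measure of RNA and labelling quality, was 0.38 ± 0.08 on hydrogen water arrays and 0.22 ± 0.10 on control arrays (SD, n = 4 each; p = 0.0571, same exact test). Hepatocyte markers fitted the tissue label: all 6 measured were tested, with a summed signal of 53118 to 54864 on hydrogen water arrays and 51770 to 55894 on control arrays. None of the 3 kidney tubule and 4 lymphocyte markers measured passed the filter. Of the 4 exocrine pancreas markers measured, 1 passed it: Cela1, with a mean log2 signal of 7.90 on hydrogen water arrays and 7.80 on control arrays. In whole liver, fewer cells of a type and less RNA per cell cannot be told apart.

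None of the 33 tested genes passed an adjusted p of 0.05 (limma, Benjamini-Hochberg over all tested probe sets), where 0.818% of all tested probe sets did, 0.445% higher and 0.374% lower with hydrogen water. At an unadjusted p under 0.05 stood 2 of the 33 (6.06%), Tdo2 and Glud1, against 12.5% of all tested probe sets. Differences, given here as hydrogen water minus control on the log2 signal scale, ran from -0.73 to 0.57, with a median of -0.02 against -0.00 over all tested probe sets; 14 lay above 0 and 19 below. The 95% interval lay inside 1.5-fold in either direction for 21 of the 33 genes (63.6%), against 61.8% of all tested probe sets. It lay inside 2-fold for 29 (87.9%), against 91.8%. Signal changes of that size are outside the interval for those genes, while for Tat, Ddc, Sds and Got1 the interval reached beyond 2-fold. How far the signal of the brightest probe sets, such as those of Cps1, Hpd and Cdo1, follows the transcript was not tested.

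**Figure D1:**
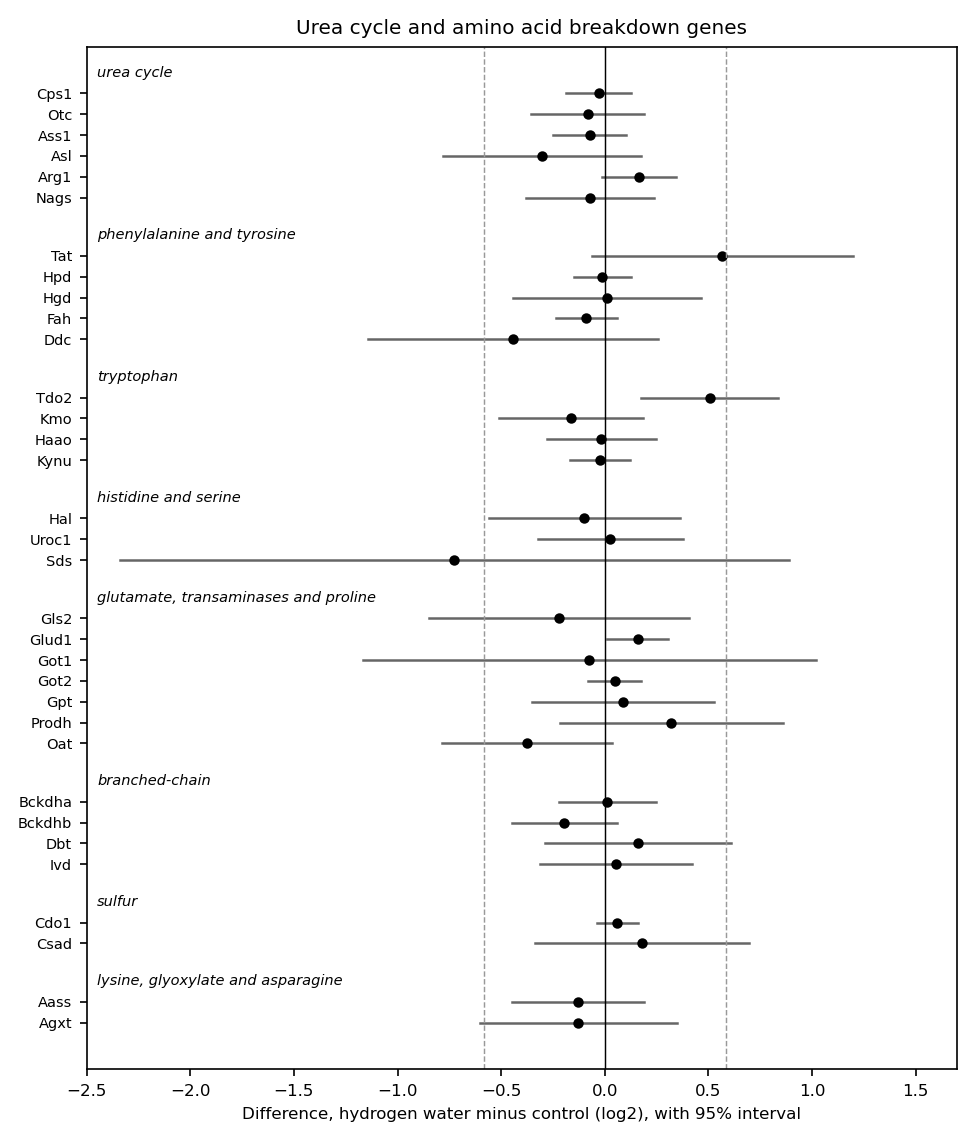
Difference in log2 signal, hydrogen water minus control, for the 33 tested genes, as points with the 95% interval from the fit over all tested probe sets, by enzyme group; dashed lines mark 1.5-fold in either direction. Tdo2 and Glud1 have intervals that leave out 0, and neither passed the adjusted threshold.

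Most probe sets of the genes gave bright signals, which depend on the probes as well as on the transcript and do not rank the genes by abundance. The mean signal of 6 genes, Cps1, Ass1, Arg1, Hpd, Tdo2 and Cdo1, was in the top 1% of all tested probe sets, and that of 28 of the 33 was in the top 10%. The spread between arrays of 1 group differed more: the within-group SD was in the top 10% for 7 genes, Tat, Ddc, Sds, Gls2, Got1, Prodh and Csad, and in the bottom 10% for 6, Hpd, Fah, Kynu, Glud1, Got2 and Cdo1. The median within-group SD was 0.28 over the 33 genes and 0.22 over all tested probe sets.

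The promoters of 3 genes are shown as examples. Tdo2 has the smallest p, and Got1 and Tat are among the 7 genes with a within-group SD in the top 10%. Others of these 7, such as Ddc with a wider spread than Tat, matched a promoter entry and are not shown. They are the 250 bases before the transcription start, from RefSeq on the rat build GRCr8, with matches to 5 searched motifs in capitals. Tdo2 lies at chr2:169585587-169585836 on the minus strand, Got1 at chr1:252329872-252330121 on the minus strand, at a start inside its RefSeq gene model, and Tat at chr19:54856354-54856603 on the plus strand.
Tdo2: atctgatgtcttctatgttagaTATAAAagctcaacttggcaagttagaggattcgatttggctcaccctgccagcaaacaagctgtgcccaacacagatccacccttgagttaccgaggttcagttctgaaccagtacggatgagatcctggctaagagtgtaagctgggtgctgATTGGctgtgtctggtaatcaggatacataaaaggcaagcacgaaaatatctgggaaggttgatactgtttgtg
Got1: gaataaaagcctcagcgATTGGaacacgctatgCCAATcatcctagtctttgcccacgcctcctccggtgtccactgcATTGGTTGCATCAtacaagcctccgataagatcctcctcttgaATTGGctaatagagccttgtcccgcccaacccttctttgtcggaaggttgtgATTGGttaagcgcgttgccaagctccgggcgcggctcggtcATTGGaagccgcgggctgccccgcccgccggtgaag
Tat: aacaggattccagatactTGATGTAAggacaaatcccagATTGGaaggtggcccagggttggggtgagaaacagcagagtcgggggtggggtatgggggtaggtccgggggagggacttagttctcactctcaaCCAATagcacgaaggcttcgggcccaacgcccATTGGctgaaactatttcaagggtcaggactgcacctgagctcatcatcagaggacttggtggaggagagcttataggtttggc
Both strands were searched for a TATA box as TATAAA, for a CCAAT box as CCAAT, for a cAMP response element as TGACGTCA, for a C/EBP-ATF element as TGATGNAA and for a glucocorticoid receptor half-site as AGAACA. Of the 34 genes, 27 matched a promoter entry, with 31 windows among them. A gene counts where any of its windows matched, while the shares of all windows count single windows, so the units differ. TATAAA stood in 3 of these 27 (Ass1, Ddc and Tdo2) and in 12.9% of all 33469 windows, and CCAAT in 15 of 27 and in 34% of all windows. TGATGNAA stood in Got1 and Tat and in 3.4% of all windows, AGAACA in Agxt, Bckdhb and Haao and in 17.5%, and TGACGTCA in 0 of 27 and in 1.59%. In the Tdo2 window TATAAA lay at -228 to -223 from the start; TGATGNAA lay at -167 to -160 in the Got1 window and at -232 to -225 in the Tat window. Such a match is a run of letters in the window and not a shown binding site.

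In the urea cycle, 0 of 6 genes passed the test, and the median difference was -0.07, with 5 genes below 0 and Arg1 above. Cps1, carbamoyl phosphate synthetase, which takes up the ammonia, had log2 signals of 12.45, 12.51, 12.65 and 12.61 on hydrogen water arrays and 12.55, 12.48, 12.75 and 12.54 on control arrays. The groups overlapped almost wholly, and the difference was -0.03 (95% interval -0.19 to 0.13; limma adjusted p = 0.922). Otc, ornithine transcarbamylase, which makes citrulline, had 11.25, 11.14, 11.55 and 11.18 with hydrogen water against 11.70, 11.12, 11.32 and 11.32 in control, a difference of -0.08 (-0.36 to 0.19). Ass1, argininosuccinate synthase, which brings in the aspartate nitrogen, had 12.84, 12.62, 13.02 and 12.79 with hydrogen water against 12.82, 12.85, 13.01 and 12.89 in control, a difference of -0.07 (-0.25 to 0.10). The groups overlapped for both enzymes. Nags, whose product N-acetylglutamate activates Cps1, differed by -0.07 (-0.38 to 0.24).

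Arg1, arginase, which releases urea, had 12.64, 12.58, 12.70 and 12.71 on hydrogen water arrays and 12.31, 12.42, 12.73 and 12.51 on control arrays. Control array 3 was the brightest of the 8, and the other control arrays were below all hydrogen water arrays. The difference was 0.17 (-0.01 to 0.35; limma adjusted p = 0.443). Asl, argininosuccinate lyase, which yields arginine and fumarate, had 11.21, 11.07, 11.01 and 11.45 with hydrogen water against 10.69, 11.74, 11.82 and 11.71 in control. Control array 1 stood below every other array and the other 3 control arrays above every hydrogen water array. The difference was -0.30 (-0.78 to 0.17; limma adjusted p = 0.642), and without control array 1 it was -0.58 with an adjusted p of 0.0482. The second Asl probe set, which can bind several transcripts, had the same low array. Its log2 signals were 11.10, 11.12, 11.28 and 11.21 with hydrogen water against 10.61, 11.57, 11.67 and 11.53 in control. It differed by -0.17 (limma adjusted p = 0.804).

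In phenylalanine and tyrosine breakdown, 0 of 5 genes passed, with a median difference of -0.01. Tat, tyrosine aminotransferase, which opens tyrosine breakdown, had log2 signals of 12.01, 11.34, 11.57 and 10.86 on hydrogen water arrays and 10.67, 11.03, 11.60 and 10.22 on control arrays. The groups overlapped, and the signal spanned 3.48-fold over the 8 arrays. Its difference of 0.57, a 1.48-fold higher signal, had an interval of 0.958-fold to 2.29-fold (limma adjusted p = 0.457). Hpd, which oxidizes the resulting keto acid, had 12.77, 12.72, 12.92 and 12.89 with hydrogen water against 12.77, 12.79, 12.94 and 12.85 in control. That is a difference of -0.01 (-0.15 to 0.13), among the narrowest in the set.

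Fah, the last enzyme of the route, had 11.65, 11.60, 11.78 and 11.68 with hydrogen water against 11.81, 11.68, 11.88 and 11.70 in control, a difference of -0.09 (-0.24 to 0.06). Hgd, homogentisate dioxygenase, differed by 0.01 (-0.44 to 0.46). Ddc, aromatic amino acid decarboxylase, had 7.91, 7.10, 8.35 and 7.49 with hydrogen water against 8.33, 7.77, 8.97 and 7.56 in control, a 3.65-fold span over the arrays. The groups overlapped, with a difference of -0.44 (-1.14 to 0.26), and the probe set for Ddc can bind several transcripts.

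In tryptophan breakdown, 0 of 4 genes passed, with a median of -0.02, and Tdo2 stood apart from the other 3. Tdo2, tryptophan 2,3-dioxygenase, which opens the kynurenine route in hepatocytes, had log2 signals of 12.76, 12.43, 12.94 and 12.79 on hydrogen water arrays and 12.09, 11.91, 12.66 and 12.23 on control arrays. Control array 3 lay above hydrogen water array 2, and the remaining control arrays were below all hydrogen water arrays. The difference was 0.51 (0.18 to 0.84; SE 0.15), a 1.42-fold higher signal (1.13 to 1.79), with an adjusted p of 0.171 in the limma fit. It passed with spike-in scaling (0.66, adjusted p = 0.0180), with the Gapdh ratio as a covariate (0.84, adjusted p = 0.0359) and without control array 3 (0.66, adjusted p = 0.026), and over all alternatives its adjusted p ran from 0.0151 to 0.346.

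Further along the route, Kmo, kynurenine 3-monooxygenase, had 9.74, 9.75, 10.30 and 9.94 with hydrogen water against 10.03, 9.77, 10.48 and 10.09 in control, a difference of -0.16 (-0.51 to 0.19). Kynu, kynureninase, differed by -0.02 (-0.17 to 0.12) and Haao, which follows it, by -0.02 (-0.28 to 0.25). The array-to-array values of Kmo overlapped between the groups.

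**Figure D2:**
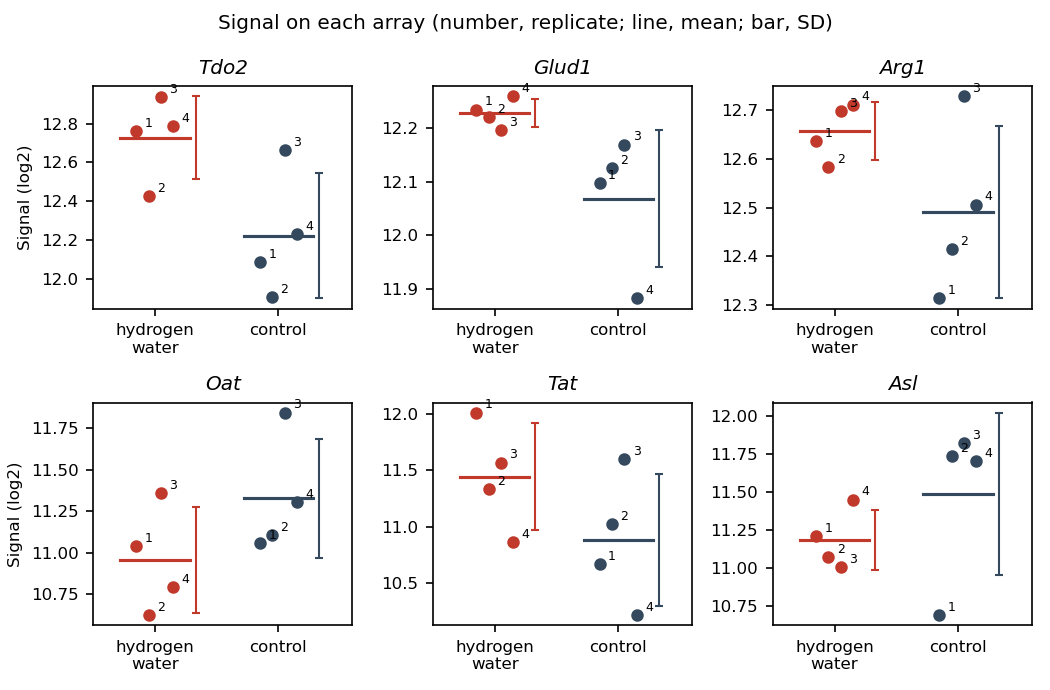
Log2 signal of Tdo2, Glud1, Arg1, Oat, Tat and Asl on each array, hydrogen water left of control, 4 arrays per group, with the replicate number beside each point, the mean as a line and the SD as a bar; each panel has its own axis. Tdo2 overlaps between the groups through control array 3, Glud1 does not overlap, and control array 1 stands at 10.69 for Asl.

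Of the histidine and serine enzymes, 0 of 3 passed, with a median of -0.10. Sds, serine dehydratase, which deaminates serine to pyruvate, had log2 signals of 10.98, 8.03, 11.76 and 10.13 on hydrogen water arrays and 9.41, 11.35, 12.11 and 10.92 on control arrays. Its signal spanned 16.9-fold over the 8 arrays, and its within-group SD of 1.39 was wider than that of 99.8% of tested probe sets. The difference of -0.73 had an interval of -2.34 to 0.89, so neither direction was resolved at this spread, and its probe set can bind several transcripts. Hal, histidine ammonia-lyase, had 10.31, 9.89, 10.60 and 10.62 with hydrogen water against 9.96, 10.30, 10.94 and 10.61 in control, a difference of -0.10 (-0.56 to 0.36). Uroc1, urocanate hydratase, the next enzyme, differed by 0.03 (-0.32 to 0.38).

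Among the 7 genes of glutamate, transaminases and proline, 0 passed, with a median of 0.05. Glud1, glutamate dehydrogenase, which releases ammonia from glutamate, had log2 signals of 12.23, 12.22, 12.20 and 12.26 on hydrogen water arrays and 12.10, 12.12, 12.17 and 11.88 on control arrays. It was the 1 gene of 33 (3.03%) whose groups did not overlap, against 7.48% of all tested probe sets. The difference was 0.16 (0.01 to 0.31), a 1.12-fold higher signal, with an adjusted p of 0.356 in the limma fit; its second probe set also did not overlap, at 0.33 (adjusted p = 0.192). Without normalization between arrays the difference was -0.08, in a setting where the median of all tested probe sets was -0.33.

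Got1, cytosolic aspartate aminotransferase, had 11.83, 9.80, 11.89 and 10.94 with hydrogen water against 9.92, 11.42, 12.06 and 11.35 in control. The span over arrays was 4.80-fold, and the difference was -0.07 (-1.17 to 1.02). Sds and Got1 placed the 8 arrays in the same order, except that hydrogen water array 1 and control array 2 changed places. Got2, the mitochondrial form, varied little, with a difference of 0.05 (-0.08 to 0.17), and Gpt, alanine aminotransferase, differed by 0.09 (-0.35 to 0.53).

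Gls2, the liver glutaminase, had 10.57, 9.91, 11.38 and 11.07 with hydrogen water against 10.66, 10.77, 11.53 and 10.86 in control, a difference of -0.22 (-0.85 to 0.41). Oat, ornithine aminotransferase, had 11.04, 10.62, 11.36 and 10.79 with hydrogen water against 11.06, 11.10, 11.84 and 11.30 in control, a difference of -0.37 (-0.79 to 0.04; limma adjusted p = 0.451). Hydrogen water arrays 1, 2 and 4 were below all control arrays for Oat. Prodh, proline dehydrogenase, had 9.37, 9.42, 10.56 and 9.86 with hydrogen water against 9.48, 9.23, 9.93 and 9.28 in control, a difference of 0.32 (-0.22 to 0.86).

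Branched-chain breakdown gave 0 of 4 genes past the test and a median of 0.03. Bckdha, a subunit of the branched-chain keto acid dehydrogenase, had log2 signals of 8.74, 8.75, 8.61 and 8.90 on hydrogen water arrays and 8.78, 8.66, 8.95 and 8.55 on control arrays, a difference of 0.01 (-0.22 to 0.24). Its partner subunit Bckdhb had 9.77, 9.70, 10.09 and 9.67 with hydrogen water against 10.13, 9.84, 10.18 and 9.87 in control, a difference of -0.19 (-0.45 to 0.06). Dbt, the core of the same complex, differed by 0.16 (-0.29 to 0.61), and by 0.74 (adjusted p = 0.0386) with the Gapdh ratio as a covariate. Ivd, isovaleryl-CoA dehydrogenase of leucine breakdown, had 9.85, 9.39, 10.28 and 9.75 with hydrogen water against 9.81, 9.77, 9.98 and 9.50 in control, a difference of 0.05 (-0.31 to 0.42).

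Of the cysteine enzymes, 0 of 2 passed, with a median of 0.12. Cdo1, cysteine dioxygenase, had 12.79, 12.84, 12.83 and 12.83 on hydrogen water arrays and 12.79, 12.74, 12.79 and 12.72 on control arrays. It spanned 1.09-fold over the arrays, and the difference was 0.06 (-0.04 to 0.16). Csad, which makes hypotaurine for taurine, had 9.82, 8.91, 8.62 and 8.74 with hydrogen water against 8.96, 8.91, 9.04 and 8.45 in control, a difference of 0.18 (-0.33 to 0.70), with hydrogen water array 1 the highest of the 8.

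Aass, which opens lysine breakdown, differed by -0.13 (-0.45 to 0.19), and Agxt, which removes glyoxylate, by -0.13 (-0.60 to 0.35). Asns, asparagine synthetase, a gene of the amino acid response, had log2 signals of 4.82, 4.96, 3.46 and 3.73 on hydrogen water arrays and 4.13, 5.10, 5.12 and 3.89 on control arrays. It was not tested, since its mean lay below the lowest kept signal of 4.42.

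Signals of many of the genes were high or low on the same arrays within each group. Control array 3 gave the highest signal for 17 of the 33 genes and hydrogen water array 3 for 10, where these arrays were highest for 11.7% and 14.7% of all tested probe sets. Hydrogen water array 2 was lowest for 15 genes, against 11.4% of all tested probe sets, and neither array numbered 3 was lowest for any of the 33. Of all tested probe sets, 16.4% were lowest on hydrogen water array 3 and 11.5% on control array 3. Relative to their own group mean, the 33 genes averaged 0.05, -0.33, 0.29 and -0.01 on hydrogen water arrays 1 to 4 and -0.15, -0.10, 0.33 and -0.08 on control arrays 1 to 4. On hydrogen water array 3, 28 of 33 genes were above the group mean, on control array 3, 30 of 33, and on hydrogen water array 2, 3 of 33. Of all 15521 tested probe sets, 7658, 7647 and 8104 were above the group mean on these arrays, in the same order.

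**Figure D3:**
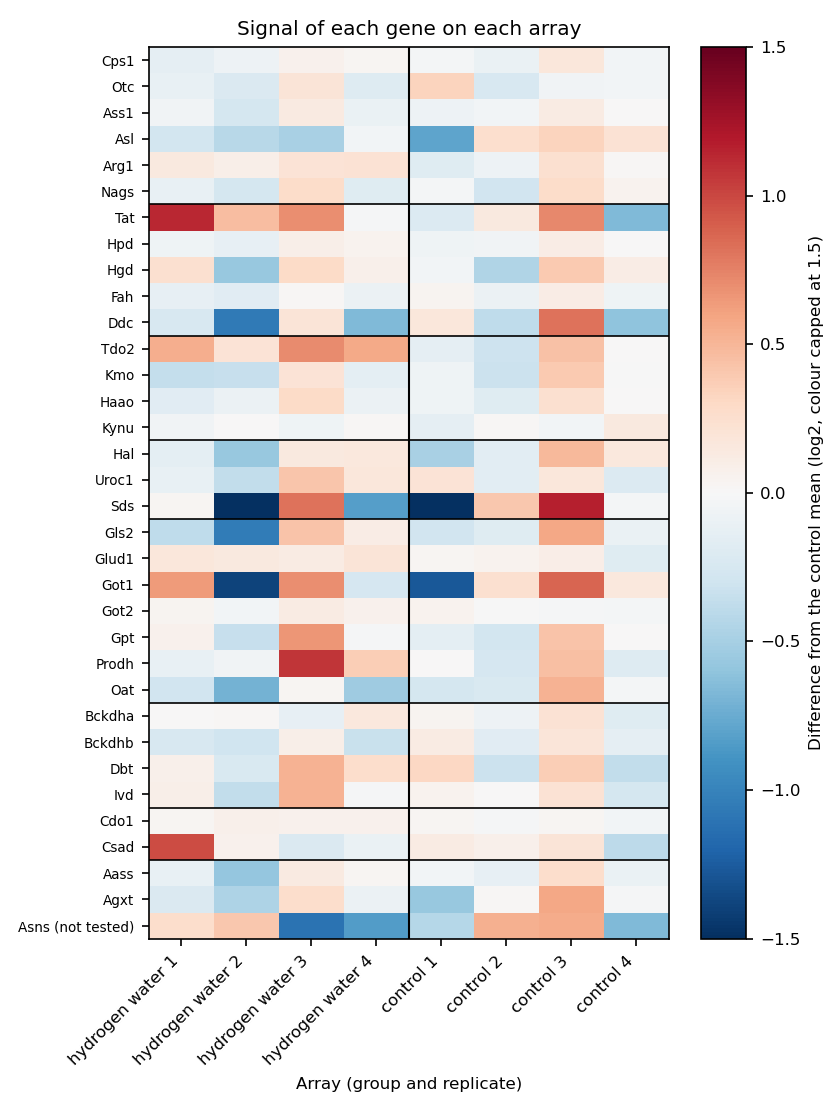
Log2 signal of each of the 34 genes on each array minus the mean of the control arrays, hydrogen water arrays left of control arrays, with lines between enzyme groups and the colour capped at 1.5; Asns was not tested. Both arrays numbered 3 are above 0 for most genes, and hydrogen water array 2 and control array 1 are lowest for Sds and Got1.

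The Gapdh ratio was 0.42, 0.46, 0.27 and 0.36 on hydrogen water arrays 1 to 4 and 0.14, 0.34, 0.15 and 0.26 on control arrays 1 to 4, and the trimmed mean signal was 80.8, 97.6, 86.0 and 103.6 against 94.98 to 132 on control arrays, with 131 on array 1 and 132 on array 3. Control arrays 1 and 3 had similar ratios and brightness, and the 33 genes averaged -0.15 and 0.33 from the group mean on them. Hydrogen water arrays 3 and 2 had the lowest and the highest ratio of their group, and the genes averaged 0.29 and -0.33 on them. The part of RNA quality and brightness in the pattern was not tested. Array numbers name no shared animal or day in the labels. An array numbered 3 alone was highest for 0 of the 6 hepatocyte markers, against 26.4% of all tested probe sets. For Alb, hydrogen water array 3 shared the highest value, 13.51, with hydrogen water arrays 1 and 2 and control array 2. These markers varied little between arrays, with a median within-group SD of 0.05 against 0.22 over all tested probe sets, so their highest array says little.

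**Figure D4:**
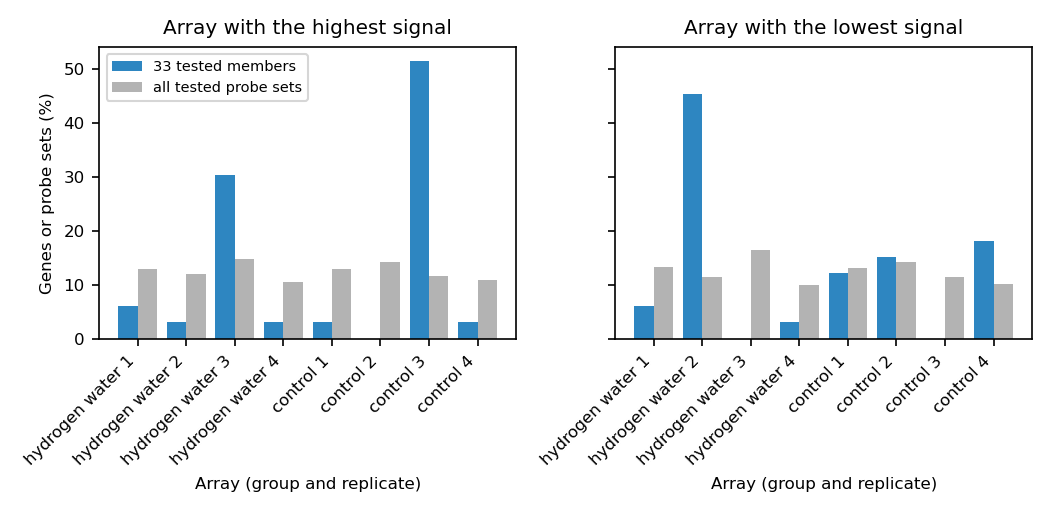
Percent of the 33 tested genes (blue) and of all tested probe sets (grey) for which each array gave the highest (left) or the lowest (right) signal, hydrogen water arrays left of control arrays. Control array 3 and hydrogen water array 3 hold 27 of the 33 highest values of the genes, and hydrogen water array 2 holds 15 of the lowest.

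Further genes of the same pathways were taken from lists. Of 80 listed, 68 were measured and 61 tested, and 0 passed in either direction, with a median of 0.01 and a range of -0.35 to 0.78. An array numbered 3 was highest for 34 of the 61 (55.7%), against 26.4% of all tested probe sets. Slc25a22, a mitochondrial glutamate carrier, had 10.64, 10.14, 10.48 and 10.31 with hydrogen water against 9.92, 10.26, 10.20 and 9.84 in control, a difference of 0.34 (0.06 to 0.61; limma adjusted p = 0.293). Hibch, of valine breakdown, differed by 0.35 (0.12 to 0.59; adjusted p = 0.187) and Gcsh, of the glycine cleavage system, by -0.29 (-0.45 to -0.12; adjusted p = 0.104); neither overlapped between the groups. The other genes with the smallest p of each list were Slc25a15, Qdpr, Gstz1, Kyat1, Qprt, Sdsl, Gpt2, Prodh2, Mcee, Ethe1, Sqor, Agxt2 and Aadat. Their adjusted p values ran from 0.462 for Kyat1, which can transaminate kynurenine, at -0.30, to 0.88 for Sdsl, a relative of Sds, at -0.14. The ornithine carrier Slc25a15 differed by 0.44 (adjusted p = 0.512) and Ethe1, of sulfide oxidation, by 0.78 (adjusted p = 0.508).

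Of the regulators and hormone targets, 40 were listed, 37 measured and 32 tested. At the adjusted threshold 2 rose and 0 fell, where 0.445% of all tested probe sets rose and 0.374% fell. The lists were written with earlier results of these data known, so this count is not a result about regulators. Fkbp5, a glucocorticoid receptor co-chaperone and target, rose by 2.73 (2.03 to 3.42; limma adjusted p = 0.00538), and Foxo1, a transcription factor of fasting metabolism, rose by 1.10 (0.65 to 1.56; adjusted p = 0.0355). Cebpa, a hepatocyte transcription factor, differed by -0.54 (adjusted p = 0.171) and Igfbp1, a hormone target, by 0.82 (adjusted p = 0.386). In the list of the amino acid response, 0 of 10 tested passed, with a median of -0.19, and 5 had an unadjusted p under 0.05, against 12.5% of all tested probe sets. Of these 5, 3 lay below 0: Atf4, its transcription factor, differed by -0.51 (-0.74 to -0.28; adjusted p = 0.0517), Atf5 by -0.29 (adjusted p = 0.0663) and Fgf21, a liver hormone, by -1.44 (adjusted p = 0.271). The other 2 lay above 0, Sesn2 at 0.94 (adjusted p = 0.150) and Eif4ebp1, an inhibitor of translation, at 0.25 (adjusted p = 0.228). In the list of glucocorticoid and cAMP targets Fkbp5 was the 1 gene of 8 tested that passed, and the median was 0.10. Of the 3 enzymes named above as hormone targets, Tat differed by 0.57, Tdo2 by 0.51 and Sds by -0.73, and none passed.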

How the data were processed

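Total liver RNA was made into biotinylated cRNA for Affymetrix arrays, per the labels' protocols. The deposited values are linear intensities that the authors made with MAS5, per the submitters' processing notes; the version and scaling target: not given in the sources used here. The arrays had no common scale, so signals were quantile normalized, which hides a shift of most transcripts one way. A pseudocount of 2.05 (10% of the median, 20.5) was added before log2, so folds are on that scale and understate dim genes. Control probe sets (57) were left out, and the 15521 of 31042 others at or above the median mean log2 signal were tested with limma 3.58.1 (lmFit, eBayes with trend) in R 4.3.3, with no covariate, Benjamini-Hochberg adjustment and a threshold of 0.05. Array measures were compared by an exact permutation test over 70 arrangements.

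Gene names came from the platform annotation (20832 probe sets with 1 symbol, 436 with several, 9831 unnamed here), checked by Entrez ID against RefSeq GRCr8, where 20764 matched. Each gene stands by its brightest probe set: 26 genes have 1 probe set and 8 have more. The genes and lists were chosen with earlier results of these data known. Array values are given for genes past the threshold, the 12 smallest p and a fixed list of central enzymes; further lists give genes past the threshold and the 2 smallest p. The fit and the adjustment were tested on simulated arrays with independent noise, without signals that move together on an array. Normalization, filter and choice of probe set were not tested in this way. Alternatives in normalization, pseudocount, filter, prior, array weights, covariates, replicate block, threshold, gene means and left-out arrays are given in the closing section. The number of arrays limits precision.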

Additional observations from a re-analysis of the deposited data

Results flagged for a closer look

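Asl on control array 1 had a log2 signal of 10.69, against 11.71 to 11.82 on the other 3 control arrays, and this gap was large for the range of the group (0.898 of it, above Dixon's 95% critical value). The second Asl probe set, which can bind several transcripts, had 10.61 on the same array, against 11.53 to 11.67 on the other control arrays. The value of 10.69 was the 1 such value in 72 groups of 4 arrays examined, and chance flags about 1 in 20 such groups.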

How the results depend on the processing

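Of the 33 tested genes, 5 (Asl, Oat, Prodh, Tat and Tdo2) kept their sign in all 24 alternatives; 23 turned in at least 1 other than no normalization, and 5 (Arg1, Cdo1, Dbt, Glud1 and Got2) only without normalization, where the whole distribution moved down; 3 (Tdo2, Asl and Dbt) passed the threshold in at least 1. The genes past the threshold numbered 0, but 2 with the Gapdh ratio as covariate, 1 with spike-in scaling, 1 with the replicate block and 0 to 1 with each array left out. Of all tested probe sets, 144 passed with spike-in scaling and 87 without control array 1. How many of all probe sets passed in at least 1 alternative was not counted, so the 3 genes have no share to compare with. Over all probe sets 127 passed, against 12 with array brightness as covariate, 239 with the Gapdh ratio, 505 without normalization, 64 without a trend, 353 at a threshold of 0.10, and 55 to 197 with each array left out (61 without control array 2, 197 without 3, 58 without 4; 61, 55 and 68 without hydrogen water arrays 1, 3 and 4). Calls higher with hydrogen water made up 54.3%, against 16.7% with the brightness covariate, 29.4% with median centring, 4.16% without normalization and 70.8% with spike-in scaling. Correlations of same-numbered arrays between the groups were -0.10, 0.04, 0.19 and -0.00, with array 3 alone correlating best with its own number. Whether same-numbered arrays shared a batch was not tested. The replicate block gave 178 probe sets and Tdo2 at 0.51 (limma adjusted p = 0.0151). Without normalization the median of all probe sets was -0.33, and group medians were -0.28 (branched-chain), -0.14 (sulfur), -0.30 (tryptophan) and -0.31 (urea cycle). With the Gapdh ratio they were 0.25 (branched-chain), 0.36 (phenylalanine and tyrosine), 0.24 (tryptophan) and 0.16 (urea cycle), and with spike-in scaling 0.078 (urea cycle). Signs turned as follows; the cause was not tested. With the Gapdh ratio Aass was 0.20, Agxt 0.095, Ass1 0.071, Bckdhb 0.089, Cps1 0.11, Ddc 0.36, Fah 0.055, Gls2 0.40, Got1 0.21, Haao 0.24, Hal 0.15, Hpd 0.088, Kmo 0.24, Nags 0.26, Otc 0.22 and Sds 0.013. With the brightness covariate Cps1 was 0.071, Haao 0.071, Hpd 0.021, Kmo 0.023, Nags 0.0075 and Otc 0.014. Array weights gave Hgd -0.025, cyclic loess Hpd 0.012, and median centring Bckdha -0.052, Cps1 0.0090, Hgd -0.013 and Hpd 0.045. Without normalization Arg1 was -0.073, Bckdha -0.31, Cdo1 -0.14, Csad -0.14, Dbt -0.19, Glud1 -0.080, Got2 -0.22, Gpt -0.18, Hgd -0.27, Ivd -0.25 and Uroc1 -0.24. Spike-in scaling gave Ass1 0.12, Cps1 0.14, Fah 0.043, Got1 0.061, Haao 0.066, Hpd 0.17, Kynu 0.11 and Otc 0.037, and trimmed mean scaling Ass1 0.054, Cps1 0.073, Haao 0.00070, Hpd 0.11 and Kynu 0.046. With each array left out, ranges that crossed 0 were -0.22 to 0.020 (Aass), -0.32 to 0.068 (Agxt), -0.047 to 0.085 (Bckdha), -0.063 to 0.028 (Cps1), -0.083 to 0.31 (Csad), -0.44 to 0.052 (Gls2), -0.50 to 0.37 (Got1), -0.10 to 0.23 (Gpt), -0.12 to 0.064 (Haao), -0.26 to 0.061 (Hal), -0.14 to 0.20 (Hgd), -0.046 to 0.026 (Hpd), -0.10 to 0.20 (Ivd), -0.065 to 0.027 (Kynu), -0.19 to 0.020 (Nags), -0.17 to 0.028 (Otc), -1.24 to 0.0059 (Sds) and -0.10 to 0.16 (Uroc1).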

Other observations

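The lists for liver zones and cell types held 0 genes past the adjusted threshold in the limma fit. Among 14 tested periportal genes the median difference was -0.04, and Igf1, which encodes a growth factor of hepatocytes, differed by -0.20 (adjusted p = 0.331). Among 13 tested pericentral genes the median was -0.06; Nr1i3, a xenobiotic receptor, differed by 0.45 (adjusted p = 0.149) and Cyp27a1, a bile acid enzyme, by 0.17 (adjusted p = 0.215). An array numbered 3 was highest for 5 of 8 periportal genes outside the 34 (62.5%) and for 3 of 12 such pericentral genes (25%), against 26.4% of all tested probe sets. Relative to their own group mean, these periportal genes averaged 0.12 on control array 3 and 0.10 on hydrogen water array 3. The pericentral genes averaged 0.14 and 0.03 on the same arrays.

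Of 4 endothelial markers tested, 2 lay above 0, Stab2 at 0.42 (adjusted p = 0.204) and Lyve1 at 0.38 (adjusted p = 0.234), and 2 below, Kdr at -0.10 (adjusted p = 0.755) and Pecam1 at -0.04 (adjusted p = 0.962). The summed signal of the 4 endothelial markers was 2004 to 2259 on hydrogen water arrays and 1778 to 2082 on control arrays, and that of the 5 Kupffer cell markers was 1757 to 2150 against 1609 to 2315. The 3 erythroid markers summed to 3557 to 5577 on hydrogen water arrays and 2823 to 4269 on control arrays, with Hbb differing by 0.31 (adjusted p = 0.413). The 5 stellate cell and fibroblast markers tested had a median of -0.15 and ran from -0.42 for Col1a1 (adjusted p = 0.463) to 0.30 for Dcn (adjusted p = 0.639). Of 2 cholangiocyte markers tested, Epcam differed by -0.37 (adjusted p = 0.424) and Krt19 by -0.03 (adjusted p = 0.984).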
